A study of Mus musculus with 9 samples.

Results

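The transcripts described here code for S100 proteins and galectins, 10 genes in all. They are the S100 genes S100a1, S100a4, S100a6, S100a8, S100a9, S100a10 and S100a11 and the galectin genes Lgals1, Lgals3 and Lgals9. They were chosen by symbol from the 53465 genes of the deposited count table, and where a symbol stood on several rows the row with the most reads was kept. Of the 10 genes, 9 passed the filter on low counts, a CPM (counts scaled to the library total) above 1 in at least 3 libraries, which kept 11950 genes. S100a9 fell below it in every group.

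S100 proteins are small calcium-binding proteins with a pair of EF-hand motifs, and most of them work as dimers. Inside the cell they bind annexins, myosin and other targets, and some are released and act on neighbouring cells through receptors such as Toll-like receptor 4 and RAGE. Galectins are lectins that bind beta-galactoside sugars on glycoproteins. They leave the cell by a route that does not use the secretory pathway, link receptors on the cell surface and, inside the cell, mark damaged lysosomes. Both families are abundant in macrophages, and galectin-3 has long served as a macrophage marker under the name Mac-2.

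RNA was sequenced from 9 libraries of bone marrow-derived macrophages (BMDMs) of male wild-type C57BL/6 mice (C57bl6/J in the methods), grown in medium with serum and CSF1 at 50 ng/ml for 5 to 10 days. The 3 UNX libraries came from cells left untreated. The 3 CO-CM and 3 PH-CM libraries came from cells given medium conditioned by pulmonary artery adventitial fibroblasts of control calves (CO-CM) or of calves with pulmonary hypertension induced by hypobaric hypoxia (PH-CM). The conditioned media were bovine and the responding cells murine, and medium of each kind was pooled from several fibroblast populations, so that the replicates repeat the macrophage culture and not the calf. The sample labels hold both 16 h and 24 h as the length of treatment, and the paper's methods give a time between them. The experiment was repeated, but no label ties a replicate number to a repeat or a mouse, so p-values measure the spread between these cultures, which may be in part technical. Treated cells differed from UNX cells in receiving conditioned medium as such, so an effect of the fibroblasts' products and one of spent medium cannot be told apart in a comparison with UNX.

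Libraries held 62017933 to 84314201 counted reads. The label of macrophages was checked against 11 macrophage markers, among them Adgre1, Csf1r and Cd68, and all 11 passed the filter, with a summed level of 13500 to 14540 CPM in UNX, 20530 to 21530 in CO-CM and 22940 to 25040 in PH-CM. Lyz2, the lysozyme gene, made up most of the sum, and markers went both ways in CO-CM, where 6 were called higher (an edgeR FDR not above 0.05 and a level changed 1.2-fold or more) and 3, the complement genes C1qa, C1qb and C1qc, lower. In PH-CM 7 were called higher and the other 4 were not called. Of all genes tested, 57.0% and 63.0% were called in these comparisons with UNX. Libraries with the same replicate number deviated together from their group means. For the genes described here this was plain to see, as the replicate 1 library was the lowest of its group for 9 of the 10 genes in UNX, 8 in CO-CM and 8 in PH-CM. Among all genes tested it was the lowest of these groups for 39%, 40.1% and 36.9%. For 7 of the 10 it was the lowest in all 3 groups, as it was for 16.5% of the 11950 genes tested. A pattern of this kind was looked for after the values had been seen, and values without the replicate 1 libraries are given where they bear on a call. In these bulk libraries, fewer cells of a type and less RNA per cell cannot be told apart.

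Levels of different genes were compared per length, as RPKM (reads per kilobase of exon, scaled to the library total). Lgals3 and Lgals1 were among the most abundant transcripts in every group. Lgals3 stood at 2722 ± 476 RPKM (SD, n = 3) in UNX, 3976 ± 437 in CO-CM and 2967 ± 183 in PH-CM, which made it the 6th, 8th and 9th gene of the 53465 in mean RPKM. Lgals1 followed at 2113 ± 128, 1672 ± 147 and 1233 ± 52.5 RPKM, at ranks 13, 20 and 21. Every UNX library had more Lgals3 than Lgals1, although the ranges of the group overlapped (2172 to 3017 RPKM for Lgals3 and 1967 to 2203 for Lgals1). In both conditioned media the ranges did not overlap.

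S100 transcripts spanned a wide range below Lgals3 and Lgals1. S100a6 and S100a11 led them, at 319 ± 4.94 and 273 ± 38.1 RPKM in UNX. In RPKM the order of this pair turned with treatment. S100a6 was above S100a11 in every UNX library, and S100a11 was the higher in every CO-CM library, with overlapping ranges (284 to 328 RPKM for S100a6 and 286 to 367 for S100a11). It was also the higher in every PH-CM library, with no overlap, at 421 ± 36.3 RPKM against 309 ± 6.97. This turn rests on the exon lengths behind RPKM, 1367 bases for S100a6 and 511 for S100a11. In CPM, not per length, S100a6 was the higher in every group, at 424, 426 and 427 in UNX, CO-CM and PH-CM. S100a11 was at 135, 173 and 218 CPM. S100a10 stood at 164 ± 15.5 RPKM in UNX, 119 ± 7.48 in CO-CM and 133 ± 3.74 in PH-CM. S100a1 stood at 75.9 ± 6.68, 152 ± 4.59 and 110 ± 5.37 RPKM, below S100a10 in UNX and PH-CM and above it in CO-CM with no overlap in any group. Here too the order in CO-CM depends on length, as S100a1 was the lower in CPM, at 107 against 147. Lgals9, at 66.0 ± 5.03, 50.7 ± 4.10 and 70.1 ± 1.94 RPKM, was the lowest of the 3 galectins chosen, and it was close to S100a4, at 56.5 ± 1.85, 45.1 ± 4.68 and 47.6 ± 2.59 RPKM, which it exceeded in every library, although the ranges overlapped in CO-CM. S100a8 and S100a9 lay far below the others, at 1.41 ± 0.0760 and 1.21 ± 0.581 RPKM in UNX, where their ranges overlapped.

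**Figure D1:**
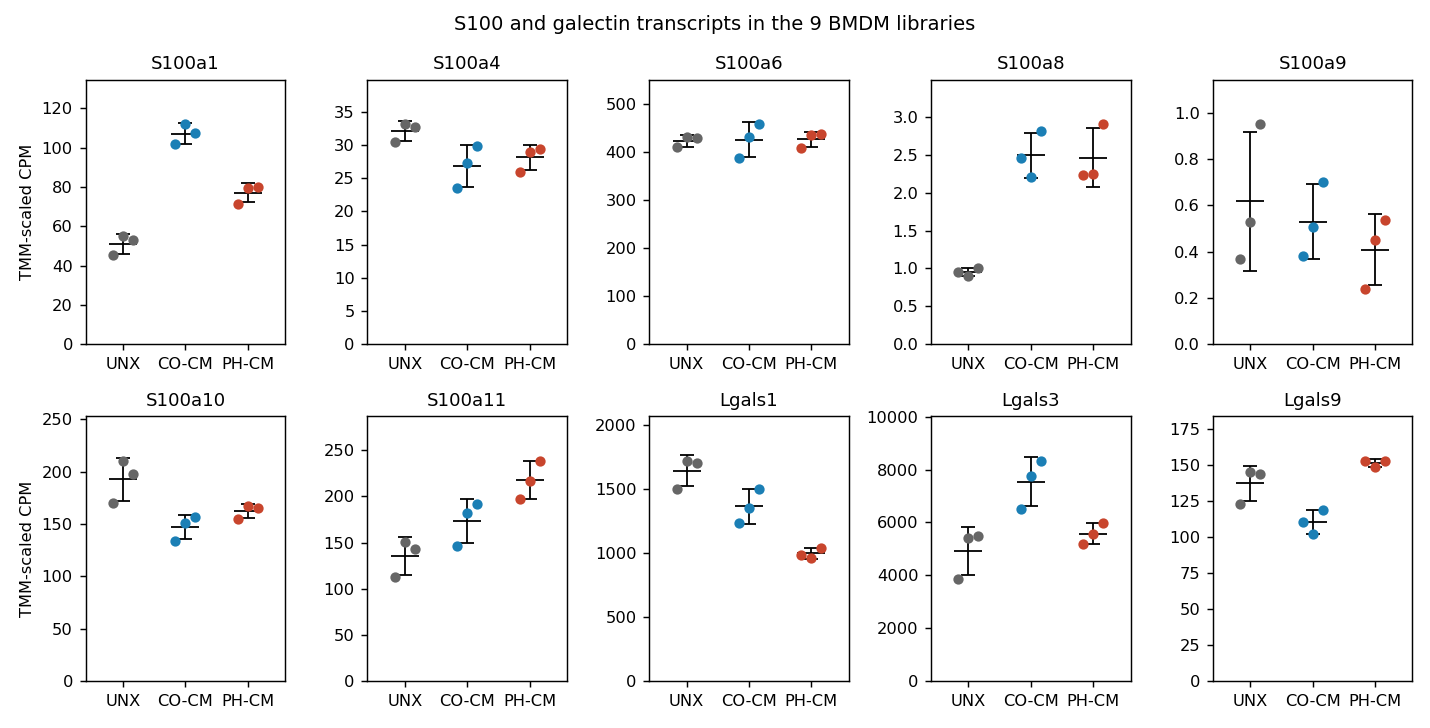
TMM-scaled CPM (y axis, linear from 0, a scale of its own in each panel) of the 10 genes in the UNX, CO-CM and PH-CM libraries, drawn left to right as replicates 1, 2 and 3. Points are libraries, and the bar and whiskers give the mean and SD of 3; S100a1, S100a8 and S100a11 are higher in every PH-CM library than in any UNX library, Lgals1 is lower in every PH-CM library, and S100a6 lies between 387 and 459 CPM in all 9.

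Changes between groups were tested on the counts. The same rule for a call was used throughout. Counts of calls were read against how often any gene was called. Groups without overlap were common as well. They made up 77.7% of all genes tested in PH-CM against UNX, 72.0% in CO-CM against UNX and 50.2% in PH-CM against CO-CM. In PH-CM against UNX, 4 of the 9 tested genes were called, against 63.0% of all genes tested. Those 4 were S100a1, S100a8 and S100a11, which were higher (31.3% of all genes were), and Lgals1, which was lower (31.7% were). In CO-CM against UNX, 7 were called, against 57.0% of all genes. S100a1, S100a8, S100a11 and Lgals3 were higher (28.0% of all genes) and S100a10, Lgals1 and Lgals9 lower (28.9%). In PH-CM against CO-CM, 4 were called, against 27.1% of all genes, with Lgals9 higher (12.2%) and S100a1, Lgals1 and Lgals3 lower (15.0%). With 9 genes and calls in both directions, these counts are not a result about the 10 genes as a group. The median log2 fold change of the 9 genes was 0.14, 0.01 and 0.01 in the 3 comparisons, where that of all genes tested was 0.01, 0.00 and -0.01. All 3 comparisons rest on the same 9 libraries, and each pair of them shares a group.

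**Figure D2:**
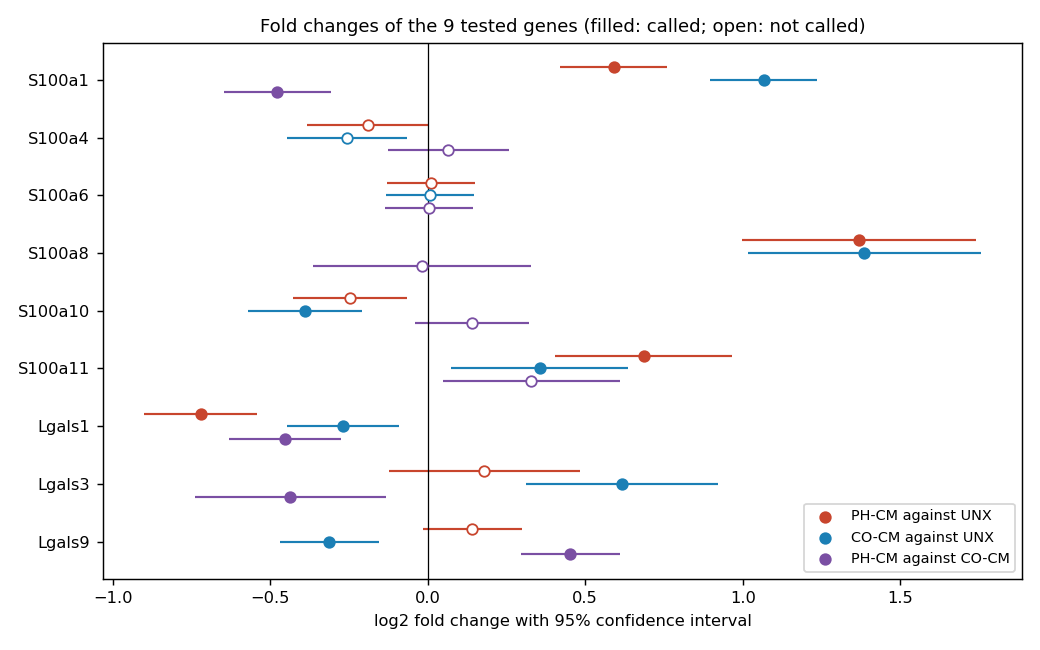
Log2 fold change (x axis) of the 9 tested genes in the 3 comparisons, with 95% confidence intervals from the edgeR fit. Filled points were called and open points were not; S100a8 has the largest changes against UNX (1.37 in PH-CM and 1.39 in CO-CM), S100a6 lies near 0 in all 3 comparisons, and Lgals9 has opposite signs against UNX in the 2 media.

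S100a1 was higher in both media, and more so in CO-CM. S100A1 is best known from heart muscle, where it binds the ryanodine receptor and the calcium pump of the sarcoplasmic reticulum. Its gene lies on the reverse strand of chromosome 3 at 90511034 to 90514392 (GRCm38). S100a1 was at 45.3, 55.1 and 53.1 CPM in the UNX libraries, at 102, 112 and 108 CPM in CO-CM and at 71.5, 79.7 and 79.9 CPM in PH-CM. The 3 groups did not overlap, and the order of UNX, PH-CM and CO-CM was the same within each replicate number. Against UNX the log2 fold change was 1.07 (SE 0.0767, FDR 7.89e-07) in CO-CM and 0.59 (SE 0.0765, FDR 4.53e-05) in PH-CM, and PH-CM lay 0.48 below CO-CM on the log2 scale (SE 0.0759, FDR 7.34e-04). None of these calls was lost when any single library was left out.

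S100a1 has a close neighbour. S100a13, an S100 gene outside the 10 whose product takes part in the release of IL-1alpha and FGF1, lies on the other strand and runs the opposite way, with a gap of 42 bases between the 2 genes in the GENCODE annotation. In RefSeq their starts are at 90514330 and 90514435, with 104 bases between them, so that both genes start from one short stretch with a G and C content of 58.7%. The stretch is shown because both genes changed the same way. The window runs from 250 bases before to 50 bases after the RefSeq start of S100a1, chr3:90514281-90514580 of GRCm38.p6, on the reverse strand and 5′ to 3′, and capitals mark the bases between the 2 starts. It holds none of the 6 motifs that are spelled out with S100a8 and S100a9.
S100a1 and S100a13: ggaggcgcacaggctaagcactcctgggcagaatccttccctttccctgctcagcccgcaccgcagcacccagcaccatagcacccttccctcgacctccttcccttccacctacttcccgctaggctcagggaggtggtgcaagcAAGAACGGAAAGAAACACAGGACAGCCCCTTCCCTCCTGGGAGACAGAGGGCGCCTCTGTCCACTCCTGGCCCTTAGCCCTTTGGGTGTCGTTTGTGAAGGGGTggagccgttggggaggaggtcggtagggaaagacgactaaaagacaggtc
S100a13 was at 32.0 ± 2.48 CPM in UNX, 47.6 ± 5.05 in CO-CM and 36.1 ± 3.20 in PH-CM. It was higher in CO-CM than in UNX by 0.58 (log2; SE 0.0929, FDR 2.69e-04) and lower in PH-CM than in CO-CM by 0.40 (SE 0.0928, FDR 0.00644), while its change in PH-CM against UNX, 0.17, did not pass (SE 0.0932, FDR 0.115). The order of the 3 group means was that of S100a1, with smaller differences. The options listed for read counting set no strand, but the 2 annotated genes do not overlap.

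S100a8 rose in both media, and its partner S100a9 was too low to pass the filter. Their products form calprotectin, a heterodimer that fills the cytosol of neutrophils, binds zinc and manganese and is released as an alarm signal. The genes lie 22596 bases apart on chromosome 3, S100a8 at 90668978 to 90670035 on the forward strand and S100a9 at 90692632 to 90695721 on the reverse strand. S100a8 was counted with 62, 68 and 86 reads in the UNX libraries, 168, 148 and 200 in CO-CM and 150, 140 and 184 in PH-CM. Every treated library was above every UNX library, which held 0.955, 0.90 and 1.00 CPM against 2.21 to 2.81 CPM in CO-CM and 2.23 to 2.91 CPM in PH-CM. Against UNX the log2 fold change was 1.39 (SE 0.166, FDR 3.23e-05) in CO-CM and 1.37 (SE 0.167, FDR 2.87e-05) in PH-CM, and PH-CM and CO-CM differed by -0.02 with a 95% interval of -0.36 to 0.33 (FDR 0.943). In UNX S100a8 lay close to the filter's limit of 1 CPM and would not have passed on these libraries alone. That it was tested thus depended on the treated libraries, where it was higher. With no filter on low counts the log2 fold changes were 1.35 in CO-CM (FDR 7.54e-08) and 1.32 in PH-CM (FDR 9.72e-08).

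S100a9 showed no such rise. It had 24, 40 and 82 reads in the UNX libraries, 26, 34 and 50 in CO-CM and 16, 28 and 34 in PH-CM, with overlap between all groups. Without the filter its log2 fold change was -0.27 in CO-CM (SE 0.344, FDR 0.608) and -0.66 in PH-CM (SE 0.356, FDR 0.164). Within single libraries, the ratio of S100a8 to S100a9 in RPKM was 1.94, 1.28 and 0.789 in UNX, 4.86, 3.27 and 3.01 in CO-CM and 7.05, 3.76 and 4.07 in PH-CM, so the ratio was higher in every treated library. All of these read numbers are even, as each mate of a pair was counted on its own, so that they stand for fewer independent fragments than reads, and counting error on S100a9 is large.

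The 2 genes have different sequences before their starts in RefSeq, and the windows are shown because the ratio of the 2 transcripts differed between treated and untreated libraries. Both run 5′ to 3′ on the gene's own strand, from 250 bases before to 50 after the RefSeq start, for S100a8 chr3:90668821-90669120 and for S100a9 chr3:90695672-90695971 (GRCm38.p6). Capitals mark matches on either strand to the letters searched, which were TGANTCA for AP-1, TTGCNNAA for C/EBP, GGGCGG for a GC box, TATAAA for a TATA box, ACGTG for the core of a hypoxia response element and GAGGAAGT for PU.1.
S100a8: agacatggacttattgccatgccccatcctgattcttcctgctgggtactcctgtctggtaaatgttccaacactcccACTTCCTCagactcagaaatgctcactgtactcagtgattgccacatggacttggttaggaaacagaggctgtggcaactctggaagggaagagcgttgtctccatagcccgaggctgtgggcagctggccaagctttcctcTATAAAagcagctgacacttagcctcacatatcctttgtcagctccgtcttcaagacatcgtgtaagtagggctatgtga
S100a9: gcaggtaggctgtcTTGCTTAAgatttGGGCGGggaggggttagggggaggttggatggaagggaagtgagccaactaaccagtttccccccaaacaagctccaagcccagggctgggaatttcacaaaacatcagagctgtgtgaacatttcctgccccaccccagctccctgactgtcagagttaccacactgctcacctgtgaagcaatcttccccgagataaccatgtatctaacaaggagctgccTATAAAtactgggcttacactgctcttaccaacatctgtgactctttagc
The S100a8 window holds a TATA box at position -30 and a PU.1 match on the opposite strand at -172. The S100a9 window holds a C/EBP match at -236, a GC box at -223 and a TATA box that begins at the RefSeq start itself. Of 32851 RefSeq windows of this length, 13.6% hold the TATA box letters and 10.8% those of C/EBP. The GC box stands in 35.7% and the letters of PU.1 in 3.2%. These matches describe the letters and not sites in use.

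Because S100a8 and S100a9 mark neutrophils, 14 markers of neutrophils and their precursors were read beside them. Their summed level was 11.4 to 16.5 CPM in UNX, 67.6 to 86.1 in CO-CM and 46.0 to 63.4 in PH-CM, so it was higher in the treated libraries, as S100a8 was, and 2 to 5 of the 14 genes were at 0 in a given library. Only Csf3r and Mmp8 of the 14 passed the filter, and both, named after their values had been seen, were higher in both media. Csf3r, the G-CSF receptor, changed by 3.16 (log2) in CO-CM and 2.18 in PH-CM, and Mmp8, neutrophil collagenase, by 1.41 and 2.35. These 2 genes made up nearly all of the sum, at 61.7 and 12.9 CPM in CO-CM, while the other 12 were each below 1 CPM in the mean of every group and went both ways. Ngp, which codes for a granule protein, was at 0.627 CPM in UNX, 0.598 in CO-CM and 0.273 in PH-CM, and Lcn2, another, at 0.195, 0.339 and 0.170 CPM. Ly6g, the gene of the Ly-6G surface marker, had 0 reads in all 9 libraries. Elane and Mpo, which code for granule enzymes, had 16 and 11 reads in the 3 UNX libraries together, 2 and 0 in CO-CM and 6 and 0 in PH-CM. Prtn3 and Ctsg, genes of the same kind, had 12 and 20 reads in UNX, 25 and 29 in CO-CM and 44 and 16 in PH-CM. Monocyte markers, 6 genes that monocytes carry along with S100a8, summed to 21.3 to 35.2 CPM in UNX, 21.3 to 40.9 in CO-CM and 151 to 258 in PH-CM, where S100a8 was not called between the media. The sum in PH-CM was carried by Vcan (137 CPM) and F13a1 (53.8 CPM), while Ccr2, a defining receptor of inflammatory monocytes, was at 6.22 CPM in UNX, 8.03 in CO-CM and 7.56 in PH-CM, and Ly6c2 was below 0.2 CPM in the mean of each group. The part of other cell types in the S100a8 result was not tested.

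S100a11 was highest in PH-CM. S100A11, or calgizzarin, pairs with annexin A1 at membranes and takes part in the repair of the plasma membrane. Its gene lies on chromosome 3 at 93520488 to 93526287, apart from the main S100 cluster. S100a11 was at 112, 151 and 143 CPM in the UNX libraries, 146, 182 and 192 CPM in CO-CM and 197, 217 and 239 CPM in PH-CM. PH-CM stood above both other groups in every library, while CO-CM and UNX overlapped through CO-CM replicate 1. The log2 fold change was 0.68 (SE 0.127, FDR 5.95e-04) in PH-CM and 0.36 (SE 0.126, FDR 0.0278) in CO-CM, and the latter was not called without UNX replicate 1 (0.22, FDR 0.114), without CO-CM replicate 2 (0.32, FDR 0.0811) or without CO-CM replicate 3 (0.28, FDR 0.105). PH-CM exceeded CO-CM by 0.33 (SE 0.126), which was not called (FDR 0.0635), but with the replicate number as a block the difference was 0.34 (SE 0.0495, FDR 2.27e-04) and was called. Without the replicate 1 library of every group it was 0.29 and also called, and 6 other settings called it as well (the edgeR exact test, DESeq2, library size alone, no filter on low counts, the 2 groups alone, and without UNX replicate 1), with values of 0.32 to 0.34.

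The window before S100a11 is shown because its gene rose most in PH-CM among the abundant S100 genes. It is chr3:93520246-93520545 on the forward strand of GRCm38.p6, with the same letters searched and matches in capitals.
S100a11: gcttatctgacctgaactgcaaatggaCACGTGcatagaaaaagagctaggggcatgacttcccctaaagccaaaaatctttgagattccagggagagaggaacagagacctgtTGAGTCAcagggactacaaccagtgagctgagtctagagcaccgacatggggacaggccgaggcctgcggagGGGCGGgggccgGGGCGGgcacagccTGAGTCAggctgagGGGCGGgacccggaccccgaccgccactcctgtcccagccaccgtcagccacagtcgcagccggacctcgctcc
It holds the AP-1 letters, at -136 and -38, as 7.81% of windows do. Its 3 GC boxes are at -64, -52 and -24, and a CACGTG, which reads as the hypoxia response element core on either strand, begins at -223. That core stands in 19.6% of windows. Of the other genes in the RefSeq table, S100a4 has a TATA box at -31 and a PU.1 match at 18, S100a6 the hypoxia response element core at 15 and Lgals3 GC boxes at -7 and 5, while Lgals9 has none of these letters.

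S100a10 was below UNX in both media and called in CO-CM only. Anxa2, the gene of its partner, had lower means in both and was called in PH-CM only. S100A10, or p11, has lost calcium binding and joins annexin A2 in a heterotetramer that holds plasminogen at the cell surface. The gene is on chromosome 3 at 93555080 to 93564643, 28792 bases beyond S100a11. S100a10 was at 170, 211 and 198 CPM in the UNX libraries, 134, 151 and 156 CPM in CO-CM and 155, 167 and 165 CPM in PH-CM. Each treated library was below each UNX library, with CO-CM and PH-CM overlapping. The log2 fold change was -0.39 in CO-CM (SE 0.0813, FDR 0.00153). In PH-CM it was -0.25 (SE 0.0812, FDR 0.0176), a 1.19-fold lower level that did not reach the fold threshold, and it was called at -0.34 without UNX replicate 1, at -0.26 without PH-CM replicate 2 and at -0.30 without the replicate 1 library of every group. Library size alone (-0.30), no filter on low counts (-0.29) and both other filters (-0.28) also called it. Anxa2 stood at 945 ± 111 CPM in UNX, 816 ± 118 in CO-CM and 772 ± 81.5 in PH-CM, and both media overlapped with UNX. Its log2 fold change in PH-CM was -0.29 (SE 0.121, FDR 0.0477). This call was lost without UNX replicate 2 (-0.23) or 3 (-0.29), CO-CM replicate 3 (-0.29), PH-CM replicate 1 (-0.21) or 3 (-0.31), or with upper-quartile factors (-0.26). The Anxa2 value in CO-CM, -0.21, did not pass (FDR 0.142) but was called without UNX replicate 1 (-0.32) and with library size alone (-0.28). The ratio of S100a10 to Anxa2 in RPKM was 0.636, 0.622 and 0.626 in the UNX libraries, 0.606, 0.517 and 0.554 in CO-CM and 0.699, 0.615 and 0.638 in PH-CM. It was nearly the same in all UNX libraries and lower than these in every CO-CM library, and the PH-CM libraries overlapped with UNX.

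S100a4 and S100a6 were not called in any comparison. S100A4 binds non-muscle myosin IIA and is often taken as a marker of fibroblasts. Its gene, at 90603771 to 90606045 of chromosome 3, overlaps the span of the predicted gene Gm42674 on the same strand. Whether their exons overlap was not checked, so some reads may not have been counted for S100a4. S100a4 was at 30.4, 33.2 and 32.7 CPM in the UNX libraries, 23.5, 27.3 and 29.8 in CO-CM and 25.9, 28.9 and 29.4 in PH-CM. All treated libraries were below UNX by a small margin. Its log2 fold change was -0.26 in CO-CM (SE 0.0863, FDR 0.0216), under the fold threshold, and -0.19 in PH-CM (SE 0.0863, FDR 0.0663). It was called in CO-CM when UNX replicate 1 (-0.31), CO-CM replicate 2 (-0.27), CO-CM replicate 3 (-0.34) or PH-CM replicate 1 (-0.26) was left out, and with library size alone (-0.33), no filter on low counts (-0.30) or either other filter (-0.29). Fibroblast markers, 10 genes that include Col1a1 and Col1a2, summed to 200 to 253 CPM in UNX. Their sum was 274 to 325 CPM in CO-CM and 254 to 339 in PH-CM, opposite in direction to S100a4. Most of it was Col1a1 and Col1a2, at 146 and 109 CPM in CO-CM. Of the 10 genes 7 passed the filter and up to 2 were at 0 in a library. The part of fibroblasts in the S100a4 values was not tested.

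S100A6, or calcyclin, binds the ubiquitin ligase adaptor CacyBP, and its gene is at 90612882 to 90624181. S100a6 was at 410, 432 and 429 CPM in the UNX libraries, 387, 431 and 459 in CO-CM and 409, 435 and 437 in PH-CM. The groups overlapped in full. Its log2 fold change was 0.01 in PH-CM, with a 95% interval of -0.13 to 0.15, and 0.01 in CO-CM, with an interval of -0.13 to 0.15.  Cacybp, by contrast, was lower by 0.51 in PH-CM (SE 0.0636, FDR 3.50e-05) and by 0.50 in CO-CM (FDR 5.12e-05).

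**Figure D3:**
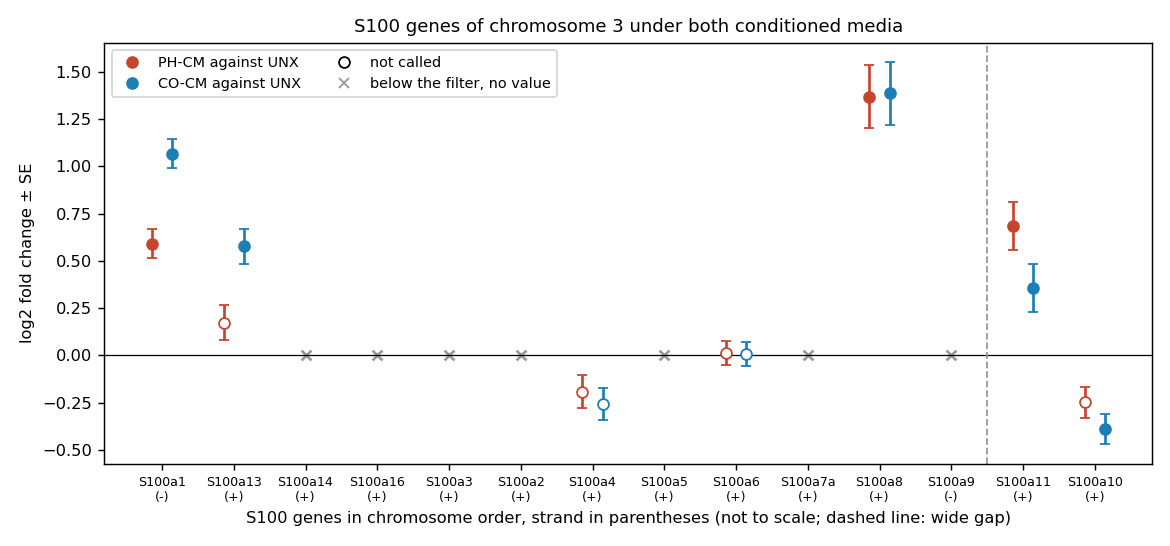
Log2 fold change against UNX with its SE (y axis) for the 14 S100 genes of chromosome 3, in the order in which they lie (x axis, not to scale), with filled points for called genes, open points for genes not called and crosses at 0 for genes below the filter, which have no value. S100a1 and S100a13 at one end are higher in CO-CM than in PH-CM, S100a4 and S100a6 in the middle have no call, with S100a4 below 0 (-0.19 in PH-CM and -0.26 in CO-CM) and S100a6 near 0, S100a8 is high in both media beside S100a9, which was not tested, and S100a11 and S100a10, beyond a wide gap, have values of opposite sign.

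The 7 S100 members share a chromosome but not a direction. The main cluster runs from S100a1 to S100a9, and S100a11 and S100a10 follow after a gap of 2824766 bases. Of the 12 S100 genes in the main cluster, S100a1, S100a13, S100a4, S100a6 and S100a8 passed the filter. S100a14, S100a16, S100a3, S100a2, S100a5 and S100a7a did not, with 0 to 377 reads over the 9 libraries, and S100a9 had 334. S100a11 and S100a10, which are direct neighbours of each other within the S100 genes, had log2 fold changes of opposite sign in both media, the fall of S100a10 being called in CO-CM only.

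Lgals1 fell in both media, most in PH-CM. Galectin-1, a dimer of a single sugar-binding domain, is known to dampen T cell and macrophage inflammation. Its gene is on chromosome 15 at 78926725 to 78930465. Lgals1 was at 1504, 1723 and 1700 CPM in the UNX libraries, 1235, 1352 and 1504 in CO-CM and 987, 961 and 1042 in PH-CM. Every PH-CM library was below every other library, and the lowest UNX and highest CO-CM libraries met at 1504 CPM. The log2 fold change was -0.72 in PH-CM (SE 0.0804, FDR 1.46e-05), a 1.65-fold lower level, and -0.45 for PH-CM against CO-CM (SE 0.0801, FDR 0.00142). In CO-CM it was -0.27 (SE 0.0800, FDR 0.0121), just past the fold threshold, and it fell short of a call without UNX replicate 2 (-0.25), UNX replicate 3 (-0.26), CO-CM replicate 1 (-0.20) or CO-CM replicate 2 (-0.26).

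Lgals3 rose in CO-CM. Galectin-3 joins a sugar-binding domain to a long flexible tail through which it forms oligomers, and it takes part in phagocytosis, fibrosis and the response to damaged lysosomes. The gene is on chromosome 14 at 47367751 to 47386160. Lgals3 was at 3857, 5407 and 5493 CPM in the UNX libraries, 6510, 7762 and 8342 in CO-CM and 5179, 5561 and 5979 in PH-CM. CO-CM lay above both other groups in every library, while UNX and PH-CM overlapped, and UNX replicate 1 was far below the other two. The log2 fold change was 0.62 in CO-CM (SE 0.137, FDR 0.00225) and 0.18 in PH-CM (SE 0.136, FDR 0.251). PH-CM was 0.44 below CO-CM (SE 0.137, FDR 0.0287), and this call was lost without CO-CM replicate 2 (FDR 0.0767), CO-CM replicate 3 (FDR 0.108), PH-CM replicate 1 (FDR 0.102) or PH-CM replicate 2 (FDR 0.0770), with values of -0.42, -0.36, -0.38 and -0.43. With the replicate block the difference was -0.43 and was called (FDR 2.27e-04). Lgals3 alone took 0.506% ± 0.0885 (SD, n = 3) of all counted reads in UNX, 0.739% ± 0.0811 in CO-CM and 0.551% ± 0.0339 in PH-CM. All 10 genes together took 0.775% ± 0.105, 0.970% ± 0.0989 and 0.755% ± 0.0396.

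The balance of the 2 abundant galectins lay further towards Lgals3 in both media. The ratio of Lgals3 to Lgals1 in RPKM was 1.10, 1.35 and 1.39 in the UNX libraries, 2.27, 2.47 and 2.39 in CO-CM and 2.26, 2.49 and 2.47 in PH-CM. The treated groups overlapped with each other and lay well above UNX. In CO-CM the higher ratio came with more Lgals3 and also less Lgals1, and in PH-CM with less Lgals1, Lgals3 not being called there. This ratio was chosen after the values of both genes had been seen.

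**Figure D4:**
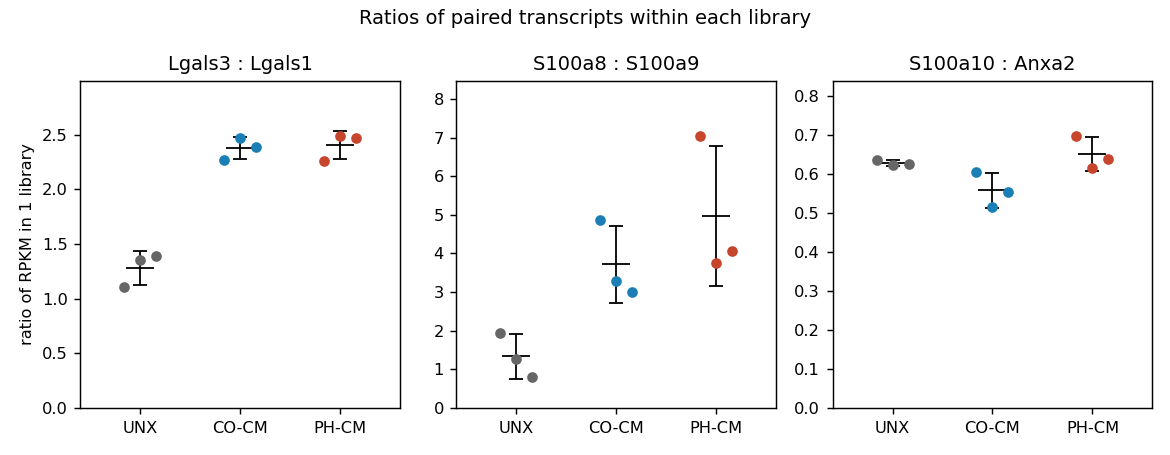
Ratio of RPKM within each library (y axis, linear from 0) for Lgals3 to Lgals1, S100a8 to S100a9 and S100a10 to Anxa2 in UNX, CO-CM and PH-CM, with points for libraries and the mean and SD of 3. Lgals3 to Lgals1 is 1.28 on average in UNX, 2.38 in CO-CM and 2.41 in PH-CM, S100a8 to S100a9 is higher in every treated library than in any UNX library, and S100a10 to Anxa2 stays between 0.517 and 0.699.

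Lgals9 was higher in PH-CM than in CO-CM. Galectin-9 carries 2 different sugar-binding domains on one chain and is a ligand of Tim-3. Its gene is on the reverse strand of chromosome 11 at 78962974 to 78984946. Lgals9 was at 123, 145 and 144 CPM in the UNX libraries, 110, 102 and 119 in CO-CM and 153, 148 and 153 in PH-CM. The 3 groups did not overlap, with CO-CM below UNX and PH-CM above it. Between the media, 50.2% of all genes tested did not overlap either. PH-CM exceeded CO-CM by 0.45 on the log2 scale (SE 0.0710, FDR 6.60e-04), a 1.37-fold higher level that was called without any single library. CO-CM was lower than UNX by 0.31 (SE 0.0709, FDR 0.00259), a call that was lost without CO-CM replicate 2 (-0.26), and the difference of PH-CM from UNX, 0.14, did not pass (SE 0.0707, FDR 0.0931). Havcr2, the gene of Tim-3, was named after its values had been seen, and it was higher in PH-CM than in UNX by 0.67 (SE 0.0893, FDR 5.53e-05) and than in CO-CM by 0.44 (FDR 0.00296). In CO-CM, where Lgals9 was lower, Havcr2 had a value of 0.23 against UNX (FDR 0.0423), under the fold threshold, with every CO-CM library above UNX, and it was called without CO-CM replicate 2 and with upper-quartile factors.

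The other galectins split as well. Of 6 further galectin genes in the table, Lgals8, Lgals4 and Lgalsl passed the filter. Lgals8, which codes for another galectin with a pair of sugar-binding domains that detects damaged vesicles, rose from 95.6 ± 5.71 CPM in UNX to 142 ± 4.66 in CO-CM and 201 ± 5.57 in PH-CM. Its log2 fold change was 0.57 in CO-CM (SE 0.0519, FDR 4.21e-06) and 1.07 in PH-CM (SE 0.0522, FDR 3.06e-08), and PH-CM exceeded CO-CM by 0.50 (FDR 4.26e-05). Lgals4 (0.63 in PH-CM and 0.97 in CO-CM) and Lgalsl, the gene of a galectin-related protein (-1.22 and -0.81), were low. In UNX they stood at 0.845 ± 0.135 and 3.54 ± 0.471 CPM. Lgals4 was below 1 TMM-scaled CPM in every UNX library and passed the filter only through the treated libraries. With no filter its values were 0.58 in PH-CM (FDR 0.0383) and 0.93 in CO-CM (FDR 5.87e-04). The call of Lgals4 in PH-CM was lost without UNX replicate 3 (0.50) or PH-CM replicate 3 (0.49).

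Annexins, the membrane-binding partners of S100 proteins, were called in both directions. Of 12 annexin genes 9 passed the filter. In CO-CM 5 rose and 0 fell against UNX (edgeR, with 0 lower at an unadjusted p under 0.05 and 0 by DESeq2), in PH-CM 3 rose and 3 fell, and in PH-CM against CO-CM 1 was higher and 5 were lower. Of all genes, 57.0%, 63.0% and 27.1% were called in these comparisons. Without the replicate 1 libraries 4 annexins fell in PH-CM against UNX, and the other counts were unchanged. The annexins' median log2 fold change was 0.37, -0.13 and -0.33 in these comparisons, where that of all genes was 0.00, 0.01 and -0.01. Anxa1, the partner of S100A11 and a mediator of the resolution of inflammation, was at 726 ± 115 CPM in UNX, 826 ± 182 in CO-CM and 403 ± 16.3 in PH-CM. It was lower in PH-CM than in UNX by 0.85 (SE 0.156, FDR 5.52e-04), where S100a11 was higher, and its value of 0.19 in CO-CM did not pass (FDR 0.304) but was 0.36 and called without CO-CM replicate 1. Anxa5, which binds phosphatidylserine, went opposite ways, by 0.37 in CO-CM (SE 0.0629, FDR 3.71e-04) and by -0.51 in PH-CM (SE 0.0630, FDR 2.96e-05), with a difference of -0.89 between the media (FDR 3.63e-06). Anxa6 was higher in both, by 0.46 and 0.58. Anxa9, a minor annexin here, changed by 0.43 in CO-CM, lost without UNX replicate 1 (0.29) or CO-CM replicate 3 (0.38), and by 0.36 in PH-CM, lost without UNX replicate 1 (0.23) or 3 (0.35) or PH-CM replicate 2 or 3 (0.33 each).

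Receptors of secreted S100 proteins were called in both directions. All 9 listed genes passed the filter, 6 higher and 3 lower in PH-CM against UNX, 2 higher and 4 lower in CO-CM, and 4 higher and 1 lower in PH-CM against CO-CM, where 63.0%, 57.0% and 27.1% of all genes were called. The medians were 0.36, -0.21 and 0.07. Without the replicate 1 libraries 5 were lower in CO-CM against UNX, and 3 were higher and 2 lower in PH-CM against CO-CM. Tlr4, which codes for the receptor that S100A8 acts on, was at 116 CPM in UNX, 89.1 in CO-CM and 149 in PH-CM. It was higher in PH-CM by 0.36 (SE 0.0566, FDR 1.93e-04) and lower in CO-CM by 0.38 (SE 0.0567, FDR 1.57e-04). Cd14, the coreceptor of Tlr4, showed the same signs with larger sizes, at 308 ± 24.3 CPM in UNX, 174 ± 15.5 in CO-CM and 830 ± 84.2 in PH-CM, with log2 fold changes of -0.82 (FDR 1.77e-05) and 1.43 (FDR 2.32e-07). Ly96, the gene of the other coreceptor, MD-2, was named after its values had been seen, and it was higher in both media, by 0.70 in CO-CM (FDR 6.23e-06) and 0.99 in PH-CM (FDR 3.25e-07). S100a8 itself had no call between the media, with the interval given above. Ager, the gene of RAGE, is counted among the higher genes but passed the filter only through the treated libraries, at 0.544 ± 0.151 CPM in UNX, 1.37 ± 0.206 in CO-CM and 1.12 ± 0.277 in PH-CM. Nptn, also on this list, was lower in PH-CM than in UNX by 0.76 (SE 0.0492, FDR 2.31e-07). Its value in CO-CM was -0.02 (FDR 0.794), and PH-CM and CO-CM differed by -0.75 (FDR 2.03e-06). Alcam, whose product binds S100B and galectin-8, was lower by 0.59 in PH-CM and by 0.36 in CO-CM.

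Of 15 genes for receptors and glycoprotein ligands of galectins, 14 passed, Cd2 only through PH-CM, with 8 higher and 3 lower in PH-CM against UNX, 6 higher and 2 lower in CO-CM, and 5 higher and 3 lower in PH-CM against CO-CM. These counts include Cd2, and 63.0%, 57.0% and 27.1% of all genes were called. The medians were 0.27, 0.14 and -0.02. Without the replicate 1 libraries 6 were higher in PH-CM against UNX, 5 higher in CO-CM, and 2 lower in PH-CM against CO-CM. Mertk, a phagocytic receptor that binds galectin-3, rose from 50.1 ± 3.05 CPM in UNX to 143 ± 16.4 in CO-CM and 162 ± 1.33 in PH-CM, by 1.51 and 1.69 on the log2 scale (FDR 7.47e-08 and 2.01e-08). Spn, the gene of the mucin-like CD43, fell by 1.11 in CO-CM and by 2.21 in PH-CM (FDR 1.83e-06 and 1.30e-08). Nrp1, which codes for neuropilin-1, a ligand of galectin-1, fell by 0.73 and 1.05 (FDR 1.30e-05 and 6.53e-07), in the direction of Lgals1. Cd2 had 6 reads over the 3 UNX libraries, 48 over CO-CM and 503 over PH-CM, so a fold against UNX would rest on very few reads.

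Intracellular partners of both families made up the last list. Of 10 genes 8 passed, with medians of 0.00, 0.09 and -0.04, 2 higher and 1 lower in PH-CM against UNX, and 3 higher and 2 lower in CO-CM, where 63.0% and 57.0% of all genes were called. In PH-CM against CO-CM 0 were called by edgeR or by DESeq2, against 27.1% of all genes by edgeR, and 2 had an unadjusted p under 0.05. Ahnak was called higher there without CO-CM replicate 2 (0.28). In PH-CM against UNX 3 genes of this list were higher without the replicate 1 libraries. Ahnak, which codes for a giant scaffold protein that binds the S100A10 and annexin A2 complex, was higher in both media, by 0.89 in PH-CM and 0.67 in CO-CM (FDR 4.51e-06 and 4.78e-05), while S100a10 was called lower in CO-CM only. Plgrkt, a plasminogen receptor that works beside S100A10, was higher by 0.98 and 1.06 (FDR 1.74e-05 and 1.30e-05). Myh9, the myosin heavy chain bound by S100A4, was lower in CO-CM by 0.33 (FDR 0.00431), a call lost with upper-quartile factors (-0.26), and had a value of -0.19 in PH-CM (FDR 0.0541).

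**Figure D5:**
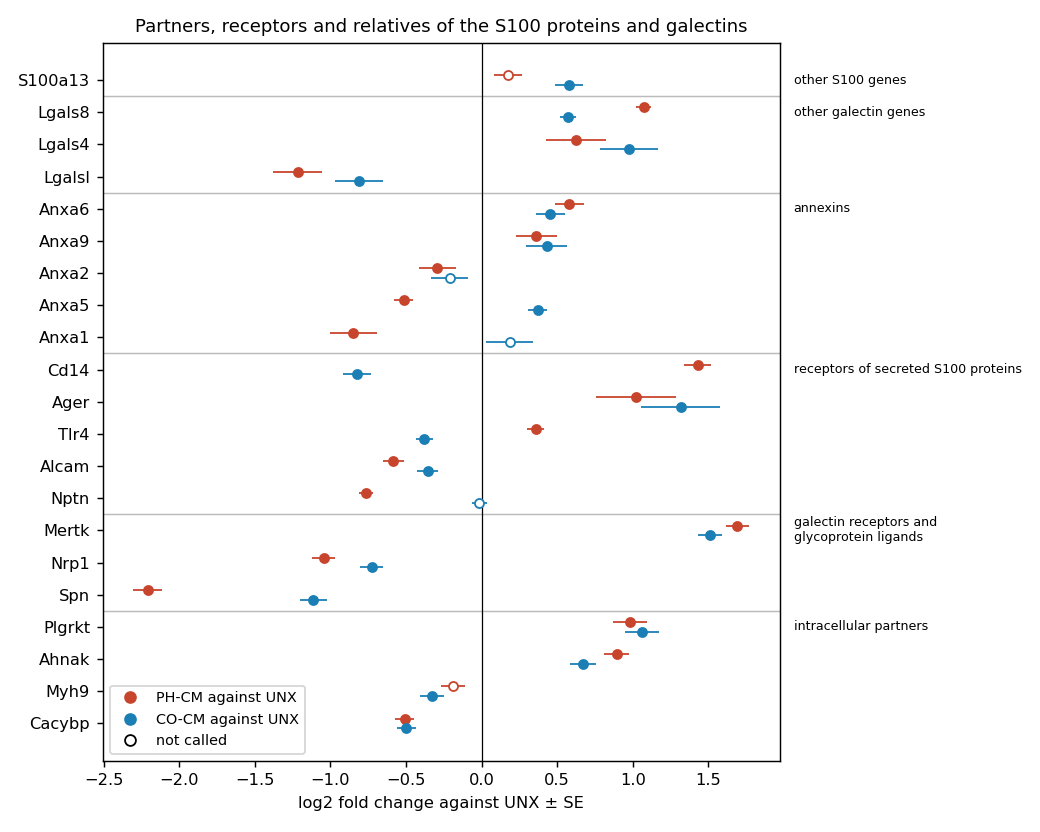
Log2 fold change against UNX with its SE (x axis) for the named genes of the 6 related lists, grouped by list, with Cd2 left out for its few reads. Filled points were called and open points were not; Anxa5, Cd14 and Tlr4 lie on opposite sides of 0 in the 2 media, and Mertk, Plgrkt, Ahnak and Lgals8 lie to the right in both.

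Each tested gene was also matched to the gene outside the 10 whose log2 CPM, centred on its mean, followed it most closely over the 9 libraries, by the root mean square distance among 11941 genes. S100a1 was followed by Ly9 at a distance of 0.0314 (log2), S100a6 by BC031181 at 0.0373, S100a10 by Pomk at 0.0370 and S100a4 by Mcub at 0.0495. Lgals9 was followed by Parp3 at 0.0516, Lgals1 by Gm15500 at 0.0530, Lgals3 by Vat1 at 0.0648, S100a11 by Ap5s1 at 0.0702 and S100a8 by E030042O20Rik at 0.11. Among the members themselves S100a4 and S100a10 were the closest pair, at 0.0757, and S100a8 and Lgals1 the farthest, at 0.893. These distances describe 9 libraries in 3 groups and carry no test.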

How the data were processed

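Per the labels and methods, the authors used FastQC and AfterQC for quality control, STAR for alignment to the GRCm38 build, and featureCounts 1.6.2 to assign reads to genes. The counting options they list set neither strand nor pairs, so reads were counted without regard to strand and each mate on its own. The deposited counts are whole reads per gene, and between 81.4% and 83.8% of counts under 20 were even. The deposited RPKM values are these counts per kilobase of exon and scaled to the total of counted reads, with no composition factor. The deposited comparison tables (the authors' log2 fold changes and p-values) were not used.

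Counts of all 9 libraries entered 1 fit with a mean per group in edgeR 4.0.16 (R 4.3.3), with TMM factors, the quasi-likelihood test and Benjamini-Hochberg FDR over the 11950 genes tested. CPM is TMM-scaled, and log2 CPM for distances had a prior count of 2. No p-value was taken from the ranks of 3 against 3 libraries, whose exact p cannot go below 0.1. The fit was tested on simulated data. Symbols were matched to names for 53274 of the 53465 identifiers. Coordinates are GENCODE's and promoter windows RefSeq's (GRCm38.p6, 8 of 10 genes). The strongest agreement between 2 replicates left a chi-square of 8.91 per gene, so none was a duplicate.

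Replicate numbers, given in the labels, were checked as pairs. For same-numbered libraries the correlation of deviations from group means was 0.276 to 0.484, and for differently numbered ones -0.376 to 0.0423. The pairing thus comes from the data, so a fit with the number as a block is given where it changes a call. The genes named are the 10 members, up to 4 genes of each related list (of those called in any comparison, the 2 that rose and the 2 that fell by most in PH-CM against UNX), Anxa2 and Tlr4, and the gene nearest to each member. Havcr2, Ly96 and the cell type markers given by name were chosen outside this rule. The members and lists were chosen with earlier results of these data known. Alternatives were other tests (edgeR exact, DESeq2 1.42.0), scalings, filters, fold thresholds, counts divided by 2, the 2 groups alone, the block and each library left out. The fit without the replicate 1 libraries and the Lgals3 to Lgals1 ratio were added after seeing the data.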

Additional observations from a re-analysis of the deposited data

How the results depend on the processing

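The number of called genes among the 9 tested was 4 in PH-CM against UNX, 7 in CO-CM against UNX and 4 in PH-CM against CO-CM. With a fold threshold of 2 it was 1, 2 and 0, where 18.0%, 13.8% and 5.12% of all genes were called, since in the edgeR fit no gene of the 9 differed 2-fold between the media, whatever its p. Every other setting gave 4 to 5, 5 to 8 and 3 to 5, as did leaving out 1 library. With the replicate block, which added S100a11 (0.34) in PH-CM against CO-CM, the number was 4, 7 and 5, and no other call on these genes changed. Without the replicate 1 libraries, a setting chosen after seeing the data, it was 5, 7 and 5. Lgals1 in CO-CM was also not called by DESeq2 (-0.26), with its size factors (-0.26), with upper-quartile factors (-0.20) or with 2 groups alone (-0.26), nor Lgals9 with upper-quartile factors (-0.25). As a share of summed RPKM, the 10 genes took 1.88% in UNX, 2.09% in CO-CM and 1.69% in PH-CM. On raw counts, not per length, the ratio of Lgals3 to Lgals1 was 2.98, 5.52 and 5.59 in UNX, CO-CM and PH-CM. That of S100a10 to Anxa2 was 0.204, 0.182 and 0.211. That of S100a8 to S100a9 was 4.94 in CO-CM, where its mean per length was 3.71. Leaving out length multiplies a ratio by the same factor in every group.

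Signs turned only for values that were called in no setting tried. S100a6 in PH-CM against UNX was -0.046 by library size, -0.033 without the filter, -0.027 with filterByExpr and -0.026 with more than 1 read in every library, and -0.064, -0.033, -0.026 and -0.026 in CO-CM against UNX. In PH-CM against CO-CM it was -0.001 by DESeq2, with its size factors and with filterByExpr, -0.033 with upper-quartile factors and -0.023 without the replicate 1 libraries. In the last setting S100a8 was 0.045 and Cacybp 0.021 in PH-CM against CO-CM, and Nptn 0.022 in CO-CM against UNX, which was 0.051 with upper-quartile factors. Cacybp was 0.001 by library size. With 1 library left out, S100a6 ranged from -0.022 to 0.042, -0.050 to 0.072 and -0.059 to 0.062 in the 3 comparisons, and Nptn in CO-CM against UNX from -0.051 to 0.031. In PH-CM against CO-CM, S100a4 ranged from -0.022 to 0.145, S100a8 from -0.152 to 0.077, Anxa2 from -0.195 to 0.011, Anxa9 from -0.143 to 0.008 and Cacybp from -0.038 to 0.041. The causes were not tested. Counting error limits S100a8 and S100a9.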
